A study of Rattus norvegicus with 6 samples.

Results

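Plasma protein and liver-enriched transcripts were examined in renal cortex of 6 male Sprague-Dawley rats. Of 34 listed genes, 33 had at least 1 array probe whose accession mapped to them, and 32 had a probe well above background on all 3 arrays of a group. These 32 are the members described here, among 12118 genes tested. Each gene was represented by its probe with the highest mean signal. Itih2 was not matched to a probe, and the single probe of Cps1, the urea cycle enzyme of hepatocytes, reached that limit on 0 of 6 arrays. Just inside the limit, Cyp2c24 was well above background on 2 of 3 vehicle arrays and on 3 of 3 treated arrays. The other 31 members were well above background on all 6 arrays. The list was drawn up with earlier results of these arrays known, so the way its members divide among the animals is a description. The list was chosen by the measured levels of these 6 arrays, on which both the variation between animals and the comparison of groups rest.

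Both groups were Crl:CD(SD) rats, 5 weeks old at purchase. The vehicle group of 3 received corn oil and the treated group of 3 received sulfone bis(p-chlorophenyl) at 250 mg/kg/day, each for 4 weeks. Each array held the Cy3-labelled RNA of 1 animal, and levels are log2 of the scanner's processed signal, set relative to the 75th percentile of each array, so 0 is that percentile and a step of 1 is a doubling. Vehicle 1 to 3 and treated 1 shared slide 1 and scan 1, and treated 2 and 3 shared slide 2 and scan 2. Between 66.1% and 68.2% of probes were well above background on an array. The nephron markers fitted the labelled tissue: all 17 were well above background on all 6 arrays, and Kap, a gene of the proximal tubule with the highest mean signal of that list, lay between 7.63 in vehicle 1 and 9.16 in vehicle 3.

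Hepatocytes make most of the proteins dissolved in plasma: carriers such as albumin and transthyretin, apolipoproteins that move lipid, coagulation zymogens and their inhibitors, and acute phase proteins whose synthesis changes in inflammation. The transcription factors HNF4A and C/EBP drive many of these genes in liver, and HNF4A is also active in the proximal tubule. The kidney itself transcribes part of the set, and it filters and takes back small plasma proteins such as retinol-binding protein. In bulk tissue, fewer cells of a type and less RNA per cell cannot be told apart.

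The members fell into those that rose and fell with albumin mRNA from animal to animal and those that did not. The log2 level of Alb was 3.49 in vehicle 1, 2.43 in vehicle 2 and -0.28 in vehicle 3. It was 1.26 in treated 1, 2.12 in treated 2 and 3.92 in treated 3. The lowest animal was thus a vehicle animal and the highest a treated one, the second highest was vehicle 1, and the groups overlapped. Treated 3 had 18.4 times the Alb signal of vehicle 3, vehicle 1 had 13.6 times that of vehicle 3, and treated 3 had 6.31 times that of treated 1. To sort the members, a gene was counted as moving with Alb when vehicle 1 exceeded vehicle 3 and treated 3 exceeded treated 1, each by over 1 log2 unit. This held for 16 of the 32 members, Alb included, against 0.586% of all tested genes and 0.413% of tested probes. In 14 of the 16 both differences exceeded 2 log2 units. Taken singly, vehicle 1 exceeded vehicle 3 by over 1 log2 unit in 16 members (1.17% of tested genes, 1.06% of probes) and treated 3 exceeded treated 1 in 20 (2.01% of genes, 1.67% of probes). The opposite within vehicle, vehicle 3 above vehicle 1 by over 1 log2 unit, held for 6 members, against 1.85% of genes and 1.64% of probes.

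All 16 had the order vehicle 1, 2, 3 and treated 3, 2, 1 from high to low, and 7 of them, Alb included, had all 6 arrays in the order of Alb. The order within groups held for 5.44% of all tested genes and 5.61% of probes, and the full order for 0.198% of genes and 0.162% of probes. The rule that chose the 16 already sets part of this order, of their range and of the rise to treated 3. Their counts beside shares of all genes are thus description only, and shares among all genes that meet the rule were not computed. A range above 3 log2 units was found in 16 members, 13 of them among those that moved with Alb, against 1.44% of genes and 1.27% of probes. The median range over the 6 arrays was 4.17 log2 units for the 16, 1.51 for the other 16 members and 0.44 for all tested genes. The difference between vehicle 1 and vehicle 3 lies within slide 1, where its median over the 16 was 3.12. Treated 3 exceeded treated 2, on the same slide, by over 1 log2 unit in all 16, with a median of 1.77, against 1.71% of tested genes and 1.43% of probes. The difference between treated 3 and treated 1 crosses slides and had a median of 2.78.

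**Figure D1:**
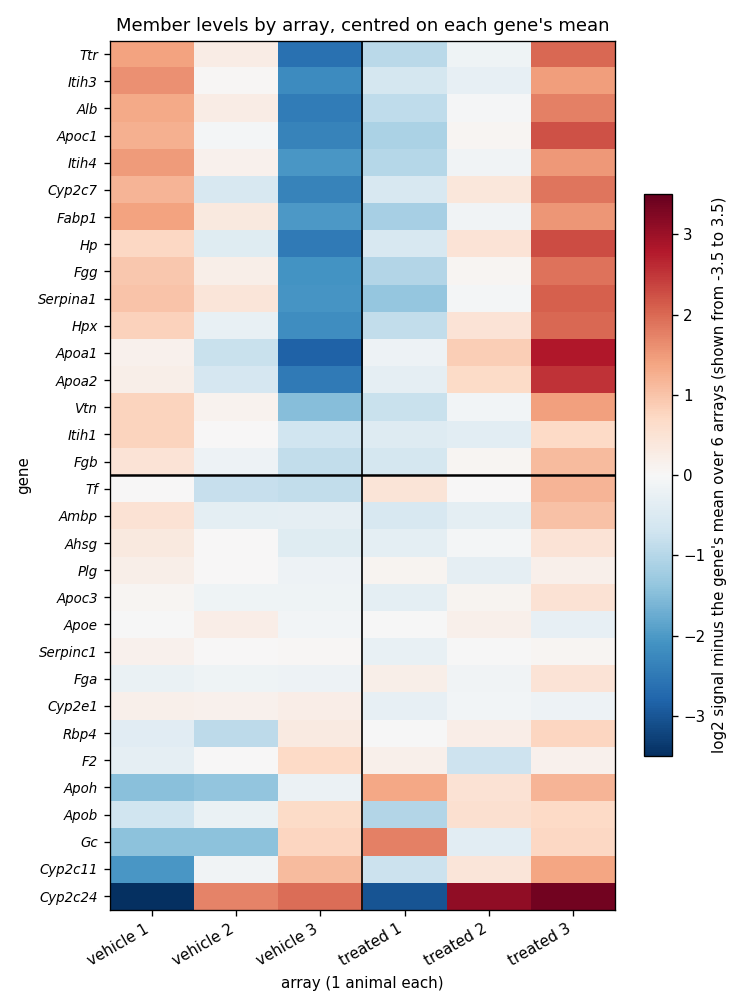
Each row is 1 of the 32 members and each column 1 array (1 animal), coloured by log2 signal minus the gene's mean over the 6 arrays and capped at 3.5 in either direction, which only Cyp2c24 exceeds. The 16 rows above the horizontal line are lowest in vehicle 3 and, in all but Apoa1 and Apoa2, highest in vehicle 1 and treated 3; below it the rows are pale or differ in their order.

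**Figure D2:**
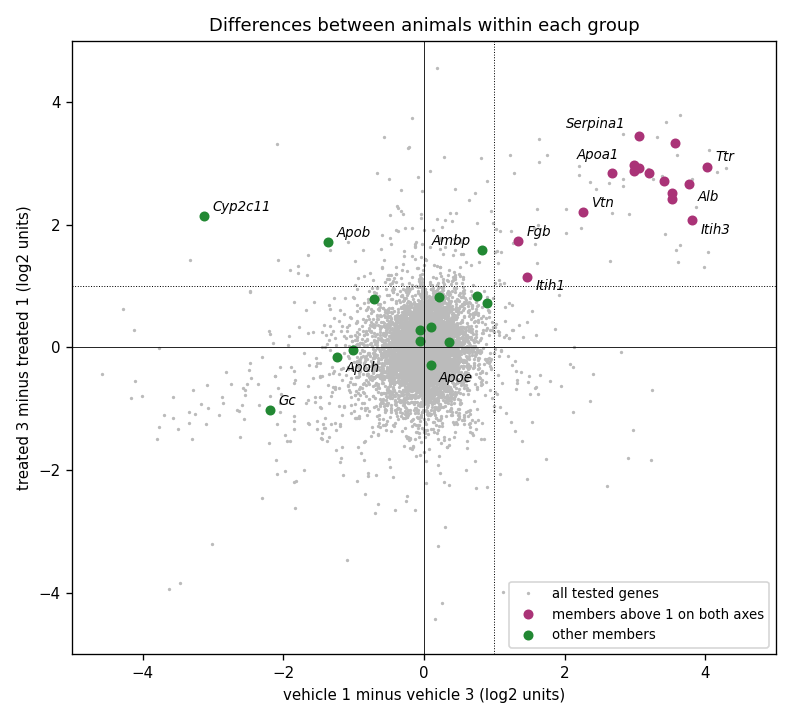
Each point is a gene, with vehicle 1 minus vehicle 3 on the x axis and treated 3 minus treated 1 on the y axis, both in log2 units; grey points are all tested genes, of which 5 lie beyond the axes, Cyp2c24 among them. The 16 members above 1 on both axes lie between 1.34 and 4.02 on the x axis and between 1.15 and 3.44 on the y axis.

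Of 11 plasma carriers and binding proteins, 5 moved with Alb: Alb, Ttr, Hp, Hpx and Vtn. Ttr, which carries thyroid hormone and the retinol-binding protein complex, had 3.12, 1.97 and -0.90 in the vehicle arrays and 0.76, 1.55 and 3.70 in the treated arrays. After centring on its mean over the arrays it departed from Alb by a root mean square of 0.13 log2 units, the closest of the other 15. Hp, which encodes the hemoglobin scavenger haptoglobin, had 1.37, 0.22 and -1.83 in vehicle and 0.09, 1.14 and 2.93 in treated arrays. Hpx, for the heme-binding hemopexin, had -0.79, -1.86 and -3.78 in vehicle and -2.47, -1.11 and 0.40 in treated arrays. For both, treated 3 was the highest array and vehicle 3 the lowest. Vtn, for the adhesive plasma protein vitronectin, had the same order within each group over a smaller range of 2.91.

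The other 6 carriers did not move with Alb. Gc, which encodes the vitamin D-binding protein, ran against it: it had -0.26, -0.25 and 1.93 in vehicle 1, 2 and 3 and 2.94, 0.82 and 1.91 in treated 1, 2 and 3. Its highest array was treated 1, where Alb was low, and its lowest were vehicle 1 and 2. Apoh, for the phospholipid-binding beta-2-glycoprotein I, had -1.90, -1.83 and -0.66 in vehicle and 0.90, 0.06 and 0.73 in treated arrays, so all treated animals lay above all vehicle animals. Rbp4, for plasma retinol-binding protein, had 1.71, 1.18 and 2.42 in vehicle and 2.07, 2.34 and 2.86 in treated arrays and overlapped only between vehicle 3 and the treated group. Tf, for the iron carrier transferrin, had 4.09, 3.25 and 3.20 in vehicle and 4.52, 4.08 and 5.25 in treated arrays; treated 2 lay just below vehicle 1. Ambp, for the precursor of alpha-1-microglobulin and bikunin, had 1.90 in vehicle 1 and 2.41 in treated 3 and stayed between 0.83 and 1.08 in the other 4 arrays. It missed the sorting rule through a difference of 0.82 between vehicle 1 and vehicle 3.

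Ahsg, which encodes fetuin-A, depended on the probe. Its brightest probe had -0.01, -0.34 and -0.77 in vehicle and -0.70, -0.42 and 0.13 in treated arrays, a range of 0.90 log2 units. Its other probes, also well above background on all 6 arrays, ranged over 4.28 and 3.71 in the same direction and met the sorting rule. Plg, for plasminogen, differed likewise, and its brightest probe ranged over 0.51. A second Plg probe met the rule but was well above background only in vehicle 1 and treated 3. For the 16 members that moved with Alb, of 6 further probes well above background on all arrays, 6 met the same rule. These probes were of Alb, Ttr, Hp, Fgb and Fabp1, and the rest of the 16 had no such further probe.

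Among 6 apolipoproteins 3 moved with Alb. Apoc1, of triglyceride-rich particles and HDL, had 1.29, -0.02 and -2.28 in vehicle and -1.06, 0.11 and 2.27 in treated arrays. Apoa1, the main HDL protein, had -1.90, -2.83 and -4.88 in vehicle and -2.22, -1.18 and 0.75 in treated arrays, and Apoa2, the second HDL protein, had -2.22, -2.99 and -4.89 in vehicle and -2.74, -1.75 and 0.11 in treated arrays. In these HDL genes treated 2 lay above every vehicle array, and treated 1 lay closer to vehicle 1 than was the case for Alb. Apoc3, an inhibitor of triglyceride clearance, lay between 2.88 and 3.70 over all arrays. Apoe, a ligand of lipoprotein receptors, had 6.76, 6.99 and 6.66 in vehicle and 6.75, 6.94 and 6.46 in treated arrays, with the groups mixed. Apob, the structural protein of VLDL and LDL, had -0.48, -0.03 and 0.88 in vehicle and -0.81, 0.76 and 0.91 in treated arrays, with vehicle 1 and treated 1 low and the other arrays higher. Its 4 other probes, all well above background, also had vehicle 3 above vehicle 1, by 0.36 to 0.79.

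Of 6 coagulation proteins only Fgb and Fgg, the fibrinogen beta and gamma chains, moved with Alb. Fgg had -1.80, -2.54 and -4.85 in vehicle and -3.78, -2.68 and -0.86 in treated arrays. Fgb had 1.00, 0.34 and -0.34 in vehicle and -0.10, 0.60 and 1.64 in treated arrays, the same order within each group over a range of 1.98. Fga, the alpha chain that is joined to them in the same protein, had 0.69, 0.75 and 0.74 in vehicle and 1.11, 0.79 and 1.40 in treated arrays. F2, for prothrombin, was highest in vehicle 3 at 2.77 and lowest in treated 2 at 1.34. Serpinc1, for antithrombin, had 6.56, 6.42 and 6.47 in vehicle and 6.16, 6.39 and 6.49 in treated arrays, the narrowest range of the 32 members at 0.40.

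All 4 protease inhibitors and inter-alpha-trypsin inhibitor heavy chains moved with Alb. Serpina1, for alpha-1-antitrypsin, had -0.71, -1.28 and -3.76 in vehicle and -3.05, -1.78 and 0.39 in treated arrays. Itih4 had 0.61, -0.74 and -2.91 in vehicle and -1.87, -1.01 and 0.65 in treated arrays, and Itih3 had -0.24, -1.82 and -4.05 in vehicle and -2.46, -2.13 and -0.39 in treated arrays. Itih1 moved least, with -1.98, -2.73 and -3.44 in vehicle and -3.20, -3.13 and -2.05 in treated arrays. The heavy chains thus shared their order within each group and differed in range.

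The 5 measured hepatocyte metabolic proteins divided further. Fabp1, the liver fatty acid-binding protein, had 1.21, 0.16 and -2.19 in vehicle and -1.37, -0.32 and 1.35 in treated arrays, and Cyp2c7, a hepatic P450, had -1.32, -3.07 and -4.84 in vehicle and -3.07, -2.10 and -0.65 in treated arrays. Both moved with Alb. Cyp2e1, the ethanol-inducible P450, stayed between 5.77 and 6.27, and its treated values of 5.77, 5.94 and 5.87 all lay below the vehicle values of 6.21, 6.19 and 6.27. Cyp2c11, the main male-specific P450 of rat liver, had -1.74, 0.16 and 1.39 in vehicle 1, 2 and 3 and -0.48, 0.71 and 1.66 in treated 1, 2 and 3. It was lowest where Alb was second highest. Cyp2c24 had 0.91 and 1.13 in vehicle 2 and 3 and 2.26 and 2.54 in treated 2 and 3, but -3.86 in treated 1, and it was not well above background in vehicle 1. Its second probe gave the same division, with values of -1.54 and -1.34 in vehicle 2 and 3, -0.30 and 0.02 in treated 2 and 3, and no array 1 of either group well above background. Probes of the Cyp2c family can bind related transcripts, so the identity of single members is uncertain.

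Members that lie side by side in the genome often parted by the sorting rule. In the gene order of RefSeq, Apoa1 and Apoc3 are adjacent, as are Apoc1 and Apoe, Fga lies directly between Fgb and Fgg, and 4 protein-coding genes separate Alb from Gc. In each of these groups at least 1 gene moved with Alb and at least 1 did not. Apoc1 ranged over 4.54 log2 units and Apoe over 0.53, and Apoa1 ranged over 5.63 and Apoc3 over 0.83. The rule counts log2 differences, in which an equal rise in linear signal is smaller at a higher level. The mean level was 6.76 for Apoe against 0.05 for Apoc1, and 3.21 for Apoc3 against -2.04 for Apoa1. Fga, at 0.91, lay above Fgb at 0.52 and Fgg at -2.75, while Gc, at 1.18, lay below Alb at 2.16. The part of base level in this parting was not tested. Itih1, Itih3 and Itih4, also neighbours, all moved with Alb, and the adjacent Cyp2c11 and Cyp2c24 shared their low values in vehicle 1 and treated 1.

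**Figure D3:**
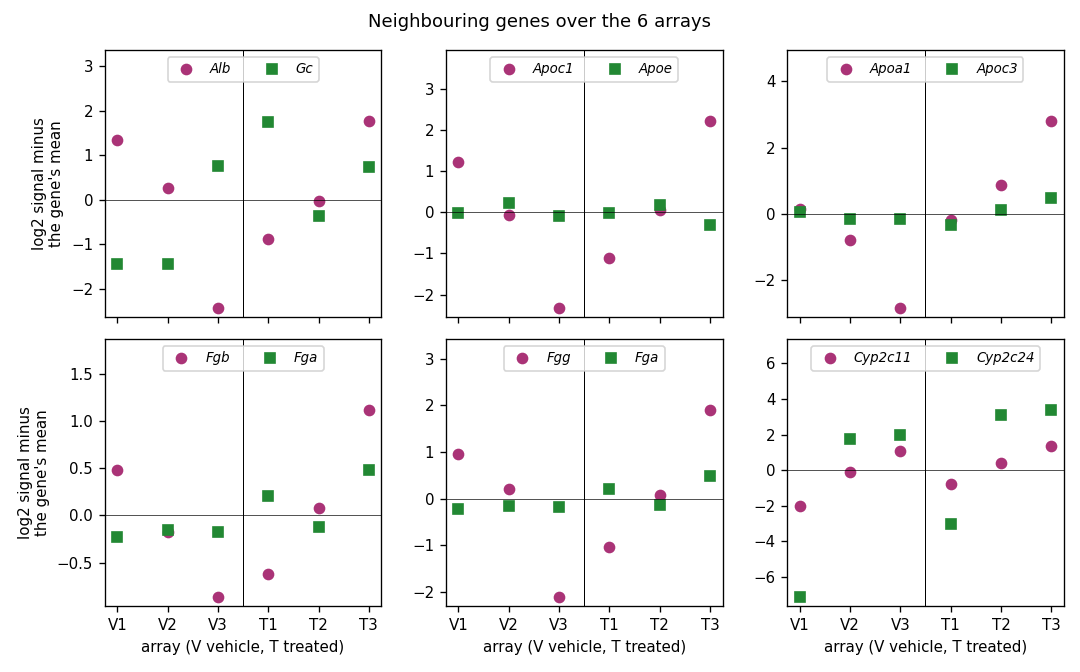
Each panel shows a pair of neighbouring genes, with the 6 arrays on the x axis (V vehicle, T treated) and log2 signal minus the gene's mean on the y axis, on a scale of its own in each panel. Gc lies opposite Alb in vehicle 1, vehicle 3 and treated 1, Apoe, Apoc3 and Fga stay near 0, and Cyp2c11 and Cyp2c24 are both low in vehicle 1 and treated 1.

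Promoters of the fibrinogen genes are shown because these neighbours parted, Fgb and Fgg moving with Alb and Fga not, and those of Cyp2c7, Cyp2c11 and Cyp2c24 because these related P450 genes moved in opposite directions within the vehicle group. RefSeq sequences of build GRCr8 were matched for 27 of the 32 members and hold the 250 bases before each start, on the gene's own strand. Capitals mark the TATA box TATAAA. The HNF4 letters CAAAGTNCA and the C/EBP letters TTNNGCAAT were also searched, each on both strands, and are in none of the 6 sequences printed.
Fgg (chr2:170652833-170653082, plus strand): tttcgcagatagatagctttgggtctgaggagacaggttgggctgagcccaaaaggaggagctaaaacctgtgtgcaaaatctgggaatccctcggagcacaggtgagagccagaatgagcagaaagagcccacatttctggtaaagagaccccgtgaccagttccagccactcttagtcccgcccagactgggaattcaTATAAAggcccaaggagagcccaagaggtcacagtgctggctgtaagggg
Fga (chr2:170671919-170672168, plus strand): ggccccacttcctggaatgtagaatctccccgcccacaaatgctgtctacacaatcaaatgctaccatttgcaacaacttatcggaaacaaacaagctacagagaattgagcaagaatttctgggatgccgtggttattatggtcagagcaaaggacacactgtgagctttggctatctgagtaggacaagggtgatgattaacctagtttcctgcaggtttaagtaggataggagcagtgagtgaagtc
Fgb (chr2:170700876-170701125, minus strand): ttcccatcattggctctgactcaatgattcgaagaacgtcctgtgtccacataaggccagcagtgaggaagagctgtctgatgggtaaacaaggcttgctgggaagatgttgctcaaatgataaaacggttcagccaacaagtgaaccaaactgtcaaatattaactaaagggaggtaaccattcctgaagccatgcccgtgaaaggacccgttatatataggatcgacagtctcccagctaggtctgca
Cyp2c7 (chr1:247966144-247966393, plus strand): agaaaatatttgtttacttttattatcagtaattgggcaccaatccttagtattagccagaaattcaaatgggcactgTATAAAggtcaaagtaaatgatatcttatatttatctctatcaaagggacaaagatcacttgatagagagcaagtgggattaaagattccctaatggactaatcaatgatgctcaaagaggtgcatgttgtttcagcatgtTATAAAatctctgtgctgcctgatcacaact
Cyp2c11 (chr1:246174966-246175215, plus strand): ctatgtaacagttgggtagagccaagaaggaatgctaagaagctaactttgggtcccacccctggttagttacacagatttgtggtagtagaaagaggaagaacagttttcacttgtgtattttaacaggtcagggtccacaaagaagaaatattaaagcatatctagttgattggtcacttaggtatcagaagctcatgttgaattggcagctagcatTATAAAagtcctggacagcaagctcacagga
Cyp2c24 (chr1:246286091-246286340, plus strand): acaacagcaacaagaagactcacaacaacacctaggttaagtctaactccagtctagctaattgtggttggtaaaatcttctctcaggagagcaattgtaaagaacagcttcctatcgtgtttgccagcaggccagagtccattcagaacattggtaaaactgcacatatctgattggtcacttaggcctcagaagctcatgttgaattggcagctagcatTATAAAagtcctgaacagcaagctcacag

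TATAAA was present in Fgg at position -50, counted back from the start, and in neither Fgb nor Fga. It stood at -31 in Cyp2c11, at -29 in Cyp2c24 and, nearest the start, at -31 in Cyp2c7, so these P450 genes shared it although they moved differently. Over the members it stood in 5 of 13 promoters of genes that moved with Alb and in 5 of 14 of the others, against 13.1% of all 27457 promoters and 8.21% of those of tested genes. TTNNGCAAT stood in 0 of 13 and in 2 of 14, those of Tf and Ahsg, against 2.02% of all promoters, and CAAAGTNCA in 0 of both, against 1.03%. A match of letters is a description and not a bound site.

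Treated animals were then set against vehicle animals with limma over all 40643 tested probes. None of the 32 members passed an adjusted p of 0.05 in limma, where 0.00738% of tested probes did (0.00246% higher in treated arrays), and the lowest adjusted p among members was 0.11. Without adjustment 3 of 32 members (9.38%) had p under 0.05, fewer in proportion than the 20.6% of all tested probes. The groups did not overlap in 3 members (9.38%), against 28.4% of tested probes. These were Apoh and Fga, with treated animals above, and Cyp2e1, with treated animals below.

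Apoh had the lowest adjusted p of the members, averaging -1.47 ± 0.70 (SD, n = 3) without treatment and 0.56 ± 0.44 (SD, n = 3) with it, a difference of 2.03 (SE 0.39, limma adjusted p = 0.11). On slide 1 alone, treated 1 against the 3 vehicle arrays, it was 2.36. Cyp2e1 had 6.22 ± 0.04 (SD, n = 3) and 5.86 ± 0.09 (SD, n = 3), a difference of -0.36 (SE 0.08, limma adjusted p = 0.12) and -0.46 on slide 1. Tf differed by 1.11 (SE 0.37, limma adjusted p = 0.19), and by 1.01 on slide 1. Fga differed by 0.37 (SE 0.16, limma adjusted p = 0.25). These differences did not pass the test across all probes.

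In the 16 members that moved with Alb the fitted differences lay between -0.07 for Itih1 and 2.32 for Apoa1, with SEs of 0.46 to 1.21 and limma adjusted p-values of 0.26 to 0.94. Alb itself averaged 1.88 ± 1.94 (SD, n = 3) without treatment and 2.43 ± 1.36 (SD, n = 3) with it, a difference of 0.55 (SE 1.12, limma adjusted p = 0.80). The fitted difference was above 0 in 26 of 32 members, against 44.8% of all probes. The median difference of all members was 0.41 and that of all tested probes -0.03. This median rested on single animals: it was -0.02 without vehicle 3 and -0.13 without treated 3, and -0.37 on slide 1 alone. Without vehicle 1 it was 0.89 and without treated 1 it was 0.85, where treatment cannot be told apart from slide. The difference in Alb was -0.62 on slide 1, so its direction also turned.

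**Figure D4:**
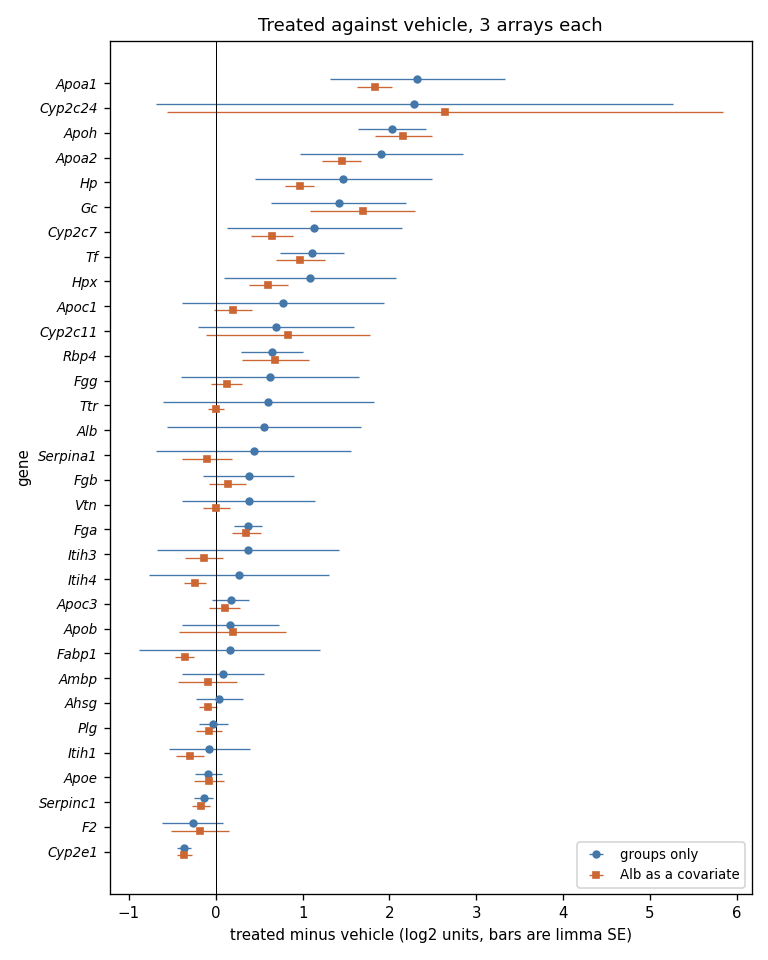
Treated minus vehicle in log2 units for each member, with bars of 1 limma SE, from the groups alone (circles) and with the Alb level of each array as a covariate (squares, no value for Alb). Apoa1 stands at 2.32 and 1.83, Apoh at 2.03 and 2.16, and the bars of Ttr, Apoc1 and Fgg shorten with the covariate.

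Because Alb varied so widely, the members that moved with it were also read relative to it, as log2 gene minus log2 Alb in each array with the vehicle mean set to 0. This choice was made after seeing the data. Ttr stayed closest to Alb and had 0.11, 0.03 and -0.14 in vehicle and -0.02, -0.09 and 0.26 in treated arrays, a spread far below that of Ttr itself. The HDL genes differed more. Apoa1 had -0.31, -0.18 and 0.48 in vehicle and 1.60, 1.79 and 1.91 in treated arrays, and Apoa2 had -0.46, -0.17 and 0.63 in vehicle and 1.24, 1.38 and 1.43 in treated arrays. Hp had -0.16, -0.25 and 0.41 in vehicle and 0.79, 0.98 and 0.97 in treated arrays. In these 3 genes every treated array lay above every vehicle array, and in Fabp1 every treated array, at -0.48, -0.29 and -0.42, lay below every vehicle array. The other 11 overlapped. Among all 70 genes that moved with Alb, these 15 included, 22.9% lay above and 15.7% below in this way, and the members' counts were not above those shares. The 70 also hold several near-identical genes of the alpha-2u-globulin family. The shares are thus a description and not an independent background. Over all tested genes, most of which did not move with Alb, the shares were 0.157% and 0.124% (0.135% and 0.108% of probes).

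With the Alb level as a covariate in the fit over all probes, Apoa1 differed by 1.83 (SE 0.21), Apoa2 by 1.45 (SE 0.22), Hp by 0.97 (SE 0.17) and Fabp1 by -0.36 (SE 0.11). Their limma adjusted p-values were 0.087, 0.11, 0.12 and 0.21, so none passed, where 0.0148% of probes did. Of 31 members 10 had an unadjusted p under 0.05 in this fit, 8 higher and 2 lower, beside 18.9% of all probes. Of these 10, 6 were members that moved with Alb. Those were sorted by Alb, and the covariate takes that movement out of their spread, so their count is description only. Ttr differed by 0.01 (SE 0.09).

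**Figure D5:**
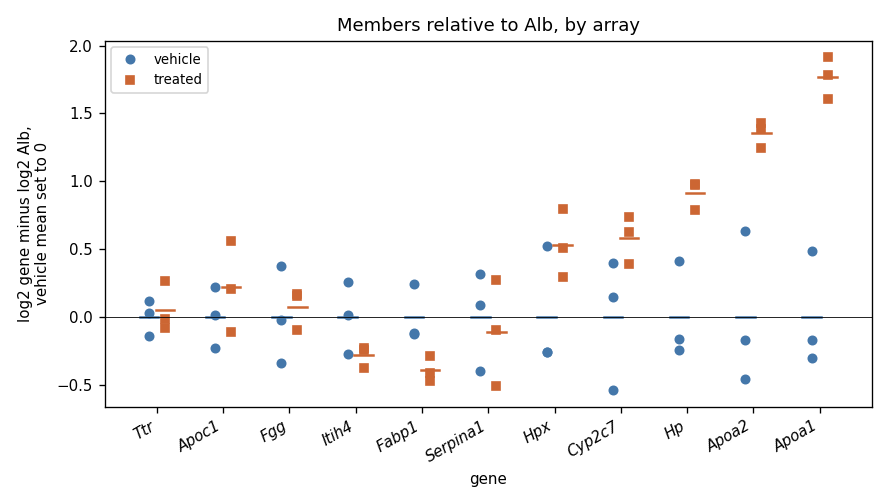
Log2 gene minus log2 Alb for 11 members that moved with Alb, with the vehicle mean of each gene set to 0; points are arrays (circles vehicle, squares treated, 3 each) and short lines are group means. Treated arrays of Hp, Apoa2 and Apoa1 lie above all vehicle arrays, those of Fabp1 below, and the other 7 genes overlap; of all 70 genes that moved with Alb, 22.9% lie above and 15.7% below.

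Other liver genes, taken from lists by cell type and function, were also divided. Of 20 further secreted hepatocyte proteins tested, 7 moved with Alb, among them Obp3 and Mup5 of the alpha-2u-globulin family and Mug1, a protease-trapping macroglobulin. Mup4, of the same family as Obp3 and Mup5, was also among the 7, and these near-identical copies are not separate observations. Pon1, another of the 7, was well above background on 2 of 3 vehicle arrays. Apom, an HDL protein with the highest mean signal of that list, stayed between 6.53 and 6.99. Of 10 further acute phase genes 4 moved with Alb: Serpina3n, Saa4, Crp and Orm1. In vehicle, Orm1 was well above background on 1 array and Crp on 2, so their vehicle differences rest on values near background. Of 9 further coagulation genes 2 did, F12 and F10, and of 11 transporters 1 did, Slc38a4. F10 was well above background on 2 of 3 treated arrays. Among 32 hepatocyte enzymes 5 did: Ces1c, Cyp2c13, Gys2, Tdo2 and Akr1c14. Cyp2c13 and Tdo2 were well above background on 2 of 3 vehicle arrays. Bhmt, Cyp4f1 and Hpd, the brightest of that list each ranged over less than 1 log2 unit. Of 11 liver transcription factors 0 moved with Alb, and Foxa2, Foxa3, Onecut1, Nr5a2 and Prox1 were well above background on 0 of 6 arrays. Hnf4a had 3.61, 3.14 and 3.48 in vehicle and 3.74, 3.99 and 3.94 in treated arrays. The share of these lists is to be read against 0.586% of all tested genes. No gene of any of these lists passed an adjusted p of 0.05 in limma, though some had an unadjusted p under 0.05, as 20.6% of all probes did: 6 of 11 transporters, 5 of 11 transcription factors, 9 of 32 enzymes, 3 of 20 secreted proteins, 2 of 10 acute phase genes and 0 of 9 coagulation genes.

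Of the coagulation, secreted protein and enzyme genes of hepatocytes in these lists, 17 had a probe but were not tested. Of these, 5 were well above background on 0 of 6 arrays (F7, Afp, Tat, Cyp7a1 and Sult1e1) and 12 on 1 to 4 arrays. None of 7 tested markers of liver macrophages, stellate cells and bile ducts moved with Alb by the rule. Among them Clec4f, a receptor of liver macrophages, had -2.78, -4.19 and -4.70 in vehicle and -3.70, -4.12 and -2.85 in treated arrays; it was highest in vehicle 1 and treated 3 but missed the rule, with treated 3 above treated 1 by 0.85. Marco and Vsig4, of macrophages in liver and elsewhere, were well above background on none of the 6. The summed linear level of the 7 tested liver macrophage, stellate and bile duct markers, in units of the array's 75th percentile, ranged from 58.4 to 62.5 in vehicle and from 55.7 to 73.2 in treated arrays, most of it from Epcam and Krt7, which renal duct epithelium also expresses. The part of other cells in the levels of the members was not tested.

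Markers of other tissues did not move with Alb by the same rule in any gene tested: 0 of 7 red cell, 0 of 4 adrenal, 0 of 6 pancreas, 0 of 7 adipocyte and 0 of 4 skeletal muscle markers did. Summed red cell levels ranged from 907.6 to 977.4 in vehicle and from 786.9 to 1114 in treated arrays, lowest in treated 3, where Alb was highest. Adrenal markers summed to 2.69 to 3.13 in vehicle and 2.68 to 3.90 in treated arrays, and the steroidogenic Cyp11b1, Cyp11b2 and Star were well above background on 0 of 6 arrays. Pancreas markers summed to 0.99 to 1.04 and 0.85 to 1.11, adipocyte markers to 203.0 to 230.3 and 202.7 to 331.9, mostly Pck1 of the proximal tubule, and skeletal muscle markers to 0.64 to 0.68 and 0.47 to 0.61. None of the 17 nephron markers moved with Alb, and their summed level ranged from 2208 to 2677 in vehicle and from 2540 to 2865 in treated arrays. In 1 of them, Kap, vehicle 3 exceeded vehicle 1 by over 1 log2 unit, the opposite of Alb.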

How the data were processed

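Renal cortex RNA of 6 rats was measured on 1-colour Agilent arrays. Per the file headers, the authors' spot intensity values, linear and background-subtracted, came from Agilent Feature Extraction 10.7.1.1; the submitters' processing notes name Agilent Feature Extraction 10.7. The authors' deposited series table also gives intensity, which lay, on the log2 scale, a median of 0.0014 to 0.0051 per array from the processed signal divided by its 75th percentile. Its medians per array ran from 0.105 to 0.110. It was used as an alternative.

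Groups and replicate numbers came from the labels. Log2 processed signal, less the 75th percentile of its array, was computed over 61537 non-control probes. Probes with an outlier flag (11) were left out, none was saturated, and 40643 probes well above background on all 3 arrays of a group were tested with limma 3.58.1 in R 4.3.3 (two-sided, Benjamini-Hochberg). Accessions were matched without versions to RefSeq genes of GRCr8: 28206 probes had 1 symbol and 33331 none. All listed genes are accounted for, the members with the largest and smallest range within a group are given by array for each role, up to 10 genes most like Alb are named, and list genes are named by highest mean signal; others were named after their values were seen. Members and lists were chosen with earlier results of these data known. The number of arrays limits the precision. Tested on simulated arrays, the fit recovered 58% of changes of 1 log2 unit and 94% of changes of 2 among 40643 probes, and called 8 probes that had none. The changed probes were drawn at random from all tested probes, with independent noise and no slide effect. These rates do not apply to the members that moved with Alb, whose SEs were 0.46 to 1.21. Normexp used the median spot signal.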

Additional observations from a re-analysis of the deposited data

How the results depend on the processing

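The count of 16 members that moved with Alb lay between 14 and 19 under every alternative tried for it: normexp, median centring, quantile normalization, the filters, the series table, the median over probes and limits of 0.5 and 2 log2 units. No member was called by limma under any of the alternatives, with 2 to 10 members at an unadjusted p under 0.05. The count of called probes over the array, 3 in all, was 137 with normexp, 17 with median centring, 153 with an intensity trend, 6 with Alb as a covariate, 1 without a filter and 1 with slide as a fixed block. It was 0 among probes above background in every array (8001 at an unadjusted p under 0.05), 0 with the replicate block (7240) and 0 with dim values at the floor (8440). With an array left out it was 0 to 4307, the highest without treated 1. Without treated 1 all vehicle arrays are on slide 1 and all treated arrays on slide 2. Treatment then cannot be told apart from slide and scan. Same-numbered arrays deviated from their group means at correlations of -0.21, 0.01 and -0.16 across probes. With 3 arrays per group these values cannot show whether same-numbered animals were paired. The replicate block left the members' median at 0.41. The fits with Alb as a covariate and with dim values at the floor were added after seeing the data.

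The median over members moved to -0.37 once slide was a fixed block, and to -0.13 to 0.89 with an array left out. Member differences whose sign turned, none of them called in either fit, were with slide as a fixed block -0.62 for Alb, -0.63 for Ttr, -0.32 for Hpx, -0.52 for Ambp, -0.33 for Ahsg, -0.58 for Vtn, -0.93 for Apob, -0.73 for Apoc1, -0.25 for Apoc3, -0.43 for Fgb, -0.71 for Fgg, 0.050 for F2, 0.077 for Plg, -1.13 for Serpina1, -0.43 for Itih3, -0.86 for Itih4, -1.09 for Fabp1, -0.42 for Cyp2c11 and -1.89 for Cyp2c24. With slide as a random block they were -0.18 for Ambp, -0.12 for Ahsg, -0.044 for Vtn, -0.32 for Apob, -0.011 for Apoc3, 0.018 for Plg, -0.25 for Serpina1, -0.23 for Itih4 and -0.39 for Fabp1. With Alb as a covariate they were -0.094 for Ambp, -0.085 for Ahsg, -0.10 for Serpina1, -0.14 for Itih3, -0.24 for Itih4 and -0.36 for Fabp1, with normexp -0.032 for Ambp and 0.021 for Plg, and with median centring 0.0096 for Plg. With an array left out, differences spanned -0.15 to 0.71 for Apob, -0.13 to 0.12 for Plg, -0.45 to 0.29 for Itih1, -0.15 to 1.42 for Cyp2c11, -0.70 to 4.37 for Cyp2c24, -0.41 to 0.38 for Ambp, -0.20 to 0.043 for Apoe, -0.53 to 1.36 for Alb, -0.54 to 1.47 for Ttr, -0.19 to 0.23 for Ahsg, and -0.26 to 0.87 for Vtn, -0.20 to 1.58 for Apoc1, -0.27 to 1.30 for Fgg, -0.49 to 0.031 for F2, -0.50 to 1.22 for Serpina1, -0.63 to 1.27 for Itih3, -0.68 to 1.08 for Itih4, -0.80 to 0.90 for Fabp1, -0.028 to 0.39 for Apoc3, -0.081 to 0.79 for Fgb. The cause of these turns was not tested. Values near background, as in Cyp2c24, limit what small differences can show.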

Other observations

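Genes outside the list that most resembled Alb over the 6 arrays were ranked by the root mean square distance of centred log2 levels, among genes well above background on all arrays. The 10 nearest were Rup2 (0.14), Mat1a (0.33), Cyp2b3 (0.35), Hsd3b5 (0.39), Mug1 (0.43), Cpamd8 (0.45), Saa4 (0.49), Slc25a47 (0.51), F12 (0.52) and Ces1c (0.58), against a median of 1.41 over all tested genes. Rup2 had 2.26, 1.34 and -1.61 in vehicle and 0.13, 0.89 and 2.42 in treated arrays. Mat1a, the methionine adenosyltransferase of adult liver, had -1.01, -2.30 and -4.40 in vehicle and -2.74, -1.70 and 0.05 in treated arrays.

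The alpha-2u-globulin genes Obp3 and Mup5, made by male rat liver under androgen and growth hormone control, moved with Alb but stood lower beside it in treated animals. They were picked after seeing the values. Of all 70 genes that moved with Alb, 15.7% had every treated array below every vehicle array relative to it. These 70 include Obp3, Mup5 and related genes of the same family, so that share is not an independent background for them. Obp3 had 3.60, 2.90 and -0.01 in vehicle and 0.58, 0.72 and 1.97 in treated arrays, so that treated 3 lay below vehicle 1 and 2, whereas in Alb it lay above them. Mup5 had 2.12, 1.44 and -1.52 in vehicle and -0.71, -0.40 and 0.97 in treated arrays. The fitted differences were -1.07 (limma adjusted p = 0.55) and -0.73 (limma adjusted p = 0.70), and neither passed. These genes form a family of near-identical copies, so the single members are uncertain and their signals are not separate observations.

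Cyp2c13, like Cyp2c11 a male-specific P450 of rat liver, had -1.70 and -2.68 in vehicle 1 and 2 and -3.43, -2.69 and -0.59 in treated arrays, and was not well above background in vehicle 3. Cyp2c13 thus moved with Alb, though its vehicle difference rests on that value in vehicle 3. Cyp2c11 was lowest in vehicle 1 and high in vehicle 3, so the 2 genes parted within vehicle only. In treated 1, 2 and 3 Cyp2c11 rose as Cyp2c13 did, with -0.48, 0.71 and 1.66.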
